A study of Pararge aegeria with 4 samples.

Results

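Epidermal growth factor (EGF) receptor signalling in the ovary of the Speckled Wood butterfly, *Pararge aegeria*, is described here through the contigs of its ligand, receptor, antagonists, processing proteases, adaptor, kinase cascade and receptor substrates. Contigs were taken when an earlier *P. aegeria* ovarian transcript or a tBLASTn hit carried the symbol Krn, Egfr, spi, aos, drk, Sos, Ras85D, rl or Dsor1, or when any annotation text held the words keren, epidermal growth factor receptor or rhomboid. This gave 21 contigs in 16 Trinity genes, of 17636 contigs in 9873 Trinity genes deposited, where a Trinity gene is a group of contigs that the assembler placed together. No contig was taken through spi, Sos or keren. An FPKM above 0 was listed for 21 of the 21 contigs in the St Hubert library and for 20 in the Zonza library. Over all 17636 contigs it was listed for 15044 in St Hubert and 16135 in Zonza.

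The study set ovaries of laboratory-reared females from St Hubert in Belgium beside ovaries of laboratory-reared females from Zonza on Corsica. Females of both populations had mated, no treatment is given in the labels, and the ovaries of a pair of females per population were used. Per the paper, the Zonza stock was newly established, whereas the St Hubert stock had been kept in the laboratory for years. There was 1 mRNA library per population, so no difference between the libraries has a replicate check. Population, time in culture, female and library cannot be told apart. The reads of both libraries were assembled together and each contig was given an FPKM (fragments scaled to contig length and to the mapped fragments of the library) in each library.

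The EGF receptor is a membrane tyrosine kinase. In *Drosophila* its ligands Spitz and Keren are made as membrane precursors that rhomboid proteases cut to release them, Argos binds the released ligand and holds it back, and the bound receptor passes its signal through the adaptor Drk, Sos and Ras to the kinases Raf, Dsor1 (MEK) and Rolled (ERK). In the fly ovary the receptor is known for its part in the follicle cells, where it sets the dorsal side of the egg and of the eggshell, with Gurken from the oocyte as its ligand.

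The libraries had similar depth. The steps between low FPKM values corresponded to about 21400000 mapped fragments in St Hubert and 20200000 in Zonza, and 99.3% and 99.6% of the low values used were whole fragments within 0.1. FPKM could therefore be turned back into estimated fragments, and ratios of fragments, scaled to these depths, are given with exact 95% intervals that cover counting error only. Ovarian markers were present in both libraries, with nanos at 1128 FPKM in St Hubert and 924.6 in Zonza and vasa at 82.2 and 67.9. The 23 contigs annotated as chorion, the eggshell made by follicle cells late in egg formation, summed to 3272 FPKM in St Hubert and 10828 in Zonza. The 11 fat body contigs summed to 2994 and 7217 FPKM, of which vitellogenin made up 2561 and 4843 and apolipophorin 431.4 and 2371. Arylphorin was at 1.8 and 0.2 FPKM, storage protein was listed at 0 and at 2.0, and no contig was annotated as hexamerin. The 22 muscle contigs summed to 553 FPKM in St Hubert and 486.4 in Zonza, and the 8 haemocyte contigs to 73.8 and 69.2. The part of these differences in the values below was not tested, and in whole ovaries fewer cells of a type and less RNA per cell cannot be told apart.

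The ligand among the members was the Trinity gene c13724_g1, which held 2 contigs. Contig i1, of 2455 bases, carried the tBLASTn symbol Krn (Keren), and contig i2, of 2466 bases, had no symbol. Both were described by BLASTx as protein spitz-like, with a mean similarity of 79% to their hits, and both had a *Bombyx mori* pro-epidermal growth factor-like transcript as their NCBI hit. Keren and Spitz are related ligands with similar sequences, so which of them this gene corresponds to is not settled by the names alone.

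Each library held a different contig of this ligand. Contig i1 was at 20.51 FPKM in St Hubert, from an estimated 1020 fragments, and was listed at 0 in Zonza. Contig i2 was listed at 0 in St Hubert and was at 22.22 FPKM in Zonza, from 1048 fragments. The contigs differ in length by 11 bases. Read by the symbol Krn alone the ligand is present in St Hubert and listed at 0 in Zonza, whereas read by its Trinity gene it was at 20.51 FPKM in St Hubert and 22.22 FPKM in Zonza. The summed ratio of Zonza to St Hubert was 1.09 (95% counting interval 0.998 to 1.19), and the log2(FPKM + 1) difference was 0.11. Whether the contigs are alleles, splice forms or an assembly split was not tested.

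A contig listed at 0 in 1 library was common in this assembly, also for genes that every cell uses. A contig of Calmodulin was at 401.9 FPKM in St Hubert and listed at 0 in Zonza, and its Trinity gene summed to 401.9 and 303.5 FPKM. Contigs listed at 0 in Zonza with at least 10 FPKM in St Hubert numbered 456, and the converse 933, but as Trinity genes these numbers were 8 and 16. Of the 4163 Trinity genes with at least 2 contigs, 590 (14.2%) had, as Krn did, at least 1 FPKM in a contig listed at 0 in the other library, in both directions. Further contigs of such a gene could be present in both libraries. After summing, 44 of the 590 (7.46%) differed by at least 2-fold. Among the 7 member Trinity genes with at least 2 contigs, Krn was the 1 with this pattern.

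**Figure D1:**
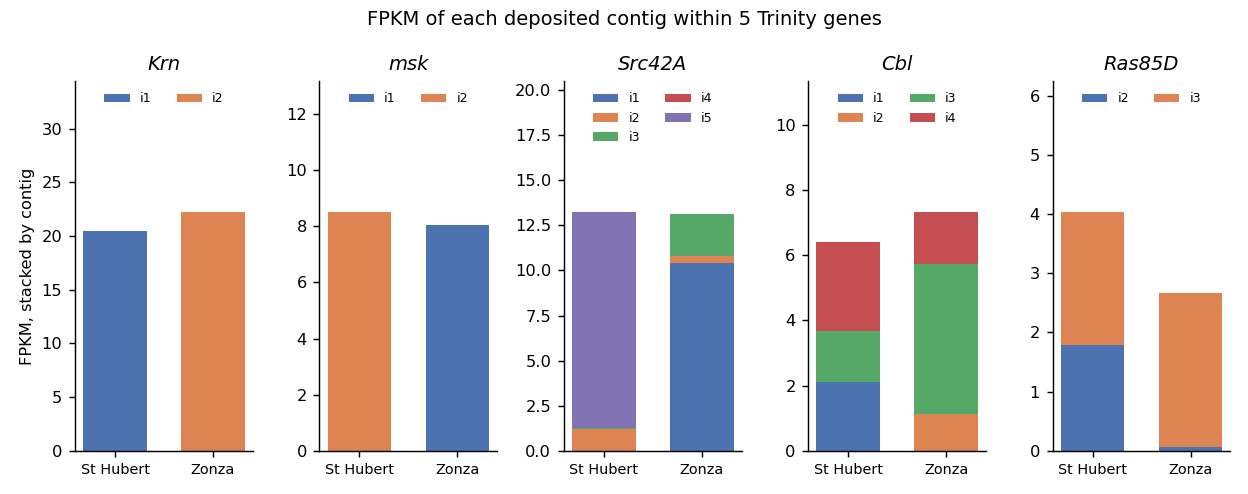
FPKM (vertical axis, a separate scale for each gene) stacked by deposited contig in the St Hubert and Zonza libraries, for Krn, 3 other pathway genes (msk, Src42A and Cbl) and Ras85D, with 1 library per bar and contigs named by their i number. For Krn the bars are of like height (20.51 and 22.22) but of different contigs, while for Ras85D contig i2 is at 1.79 in St Hubert and 0.06 in Zonza.

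Summed over its contigs, Krn was the member with the fifth highest mean FPKM, at place 4339 of the 9873 Trinity genes, where the median Trinity gene had a mean of 17.94 FPKM. Among 483 genes with a tBLASTn hit in the ovary and egg gene list, those whose pair of values lay nearest to Krn were Sce at 21.03 FPKM in St Hubert and 22.29 in Zonza, pbl at 20.35 and 23.19, and Taf1 at 19.42 and 22.66. Their distances from Krn on the log2(FPKM + 1) scale were 0.0347, 0.06 and 0.0798. This likeness rests on 2 libraries and says only that the levels are close.

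The receptor, matched to 1 contig, was among the least abundant of all Trinity genes. The Egfr contig, 884 bases long and with a mean BLASTx similarity of 82.7%, was at 0.92 FPKM in St Hubert and 0.33 in Zonza. These values correspond to 15 and 5 estimated fragments, with a ratio of 0.353 (0.10 to 1.02). The interval just included 1 and reached far lower values in Zonza, so a difference was neither shown nor excluded. Egfr stood at place 9780 of 9873 by mean FPKM and was the 1 member Trinity gene below the minimum mean of 1 FPKM. FPKM is per length of this contig, and receptor sequence outside it was not analysed here.

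A pair of antagonists was present, and the counting interval of each included 1. Argos (aos), the secreted protein that in *Drosophila* captures Spitz, was at 11.96 FPKM in St Hubert and 12.19 in Zonza, from 311 and 299 fragments. Its ratio was 1.02 (0.866 to 1.20). Kekkon 1 (kek1), a membrane protein that in *Drosophila* binds the receptor and lowers its activity, was at 0.86 FPKM in St Hubert and 1.30 in Zonza. That came from 12 and 17 fragments, and the ratio of 1.5 had an interval from 0.676 to 3.44. The kek1 contig entered through its gene ontology text. BLASTx described it as noki protein with a mean similarity of 50.8%, the lowest among the members.

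A pair of rhomboid genes was present, and their levels were far apart. The contig described as rhomboid-related protein 3, of the family that cuts EGF receptor ligands, was at 6.01 FPKM in St Hubert and 5.69 in Zonza, with a ratio of 0.945 (0.780 to 1.15). The other, described as a presenilins-associated rhomboid of the mitochondrion, was at 56.06 FPKM in St Hubert and 49.25 in Zonza, from 1431 and 1187 fragments. Its ratio was 0.879 (0.813 to 0.95), an interval that excluded 1 in counting error alone. Mitochondrial rhomboids cut proteins of the inner membrane and are not known as processors of EGF ligands, so this gene is a member by its name.

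The adaptor drk, which links the active receptor to Sos through its SH2 and SH3 domains, was at 22.07 FPKM in St Hubert and 27.48 in Zonza, from 633 and 744 fragments. The ratio was 1.25 (1.12 to 1.39), higher in Zonza. Its Trinity gene held 2 more contigs whose earlier hits are uncharacterised, i2 at 22.24 and 26.79 FPKM and i3 at 5.24 and 3.63. With them the sum was 49.55 FPKM in St Hubert and 57.90 in Zonza, the highest mean among the members. Contig i2 alone had a ratio of 1.21, close to that of the named contig.

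The members below the adaptor, Ras85D, Dsor1 and rl, were expressed at low levels, from 2.33 to 4.79 FPKM per gene. Ras85D, the small GTPase that the receptor switches on, was at 4.03 FPKM in St Hubert and 2.67 in Zonza, with 345 and 221 fragments and a ratio of 0.679 (0.571 to 0.806). Of the members, it had the lowest log2 difference past the minimum (-0.45). The difference lay in 1 of its 2 contigs. Contig i2 was at 1.79 FPKM in St Hubert and 0.06 in Zonza, from 148 and 5 fragments, whereas contig i3 was at 2.24 and 2.61 with a ratio of 1.17 (0.958 to 1.42). Both Ras85D contigs had a mean BLASTx similarity of 95.2%, the highest among the members.

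Dsor1, the MEK kinase that phosphorylates Rolled, was at 3.53 FPKM in St Hubert and 4.79 in Zonza, from 323 and 414 fragments. Its ratio of 1.36 (1.17 to 1.58) gave the highest log2 difference of the members past the minimum (0.35). Contig i1 was at 2.04 and 2.32 FPKM, with a ratio of 1.14 (0.929 to 1.40), and contig i2 at 1.49 and 2.47, with a ratio of 1.65 (1.33 to 2.06). Rolled (rl), the ERK kinase, was at 2.33 FPKM in St Hubert and 2.77 in Zonza, from 106 and 119 fragments, and its ratio of 1.19 had an interval from 0.908 to 1.56. Summed over their contigs, Ras85D and Dsor1 differed in opposite directions between the libraries, and the interval of rl included 1. By contig, only Ras85D i2, with a mean of 0.925 FPKM, was lower in Zonza. Ras85D i3 and both Dsor1 contigs had ratios above 1, and of these the interval excluded 1 only for Dsor1 i2.

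A further contig was taken because its earlier hit was named rolled, but BLASTx described it as a protein like WDR83, a WD repeat scaffold of the MAP kinase module in mammals. It was at 16.14 FPKM in St Hubert and 16.90 in Zonza, with a ratio of 1.05 (0.896 to 1.22). It was left out of the cascade.

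The receptor substrates made up 5 of the 16 Trinity genes. Eps8 is a substrate of the receptor kinase that in mammals binds actin, and Eps15 and its relative Eps15-like 1 take part in taking up the receptor by endocytosis. Of these genes an Eps8 gene (c12905) had the highest mean, at 42.27 FPKM in St Hubert and 37.81 in Zonza. Its ratio of summed fragments, to which a longer contig adds more per FPKM, was 0.806 (0.686 to 0.947). Its shorter contig i3, which held most of the FPKM, had a ratio of 0.998 (0.834 to 1.19), and contig i2 had 0.295. The other Eps8 genes were at 24.24 and 23.62 FPKM (c12092) and at 18.84 and 15.88 (c11020). An Eps15-like 1 gene (c12491) had the lowest mean, at 6.06 FPKM in St Hubert and 7.10 in Zonza, and c15678 was at 7.62 and 8.14. The Eps8 contigs are at most 937 bases long, so separate Trinity genes may hold pieces of 1 gene.

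**Figure D2:**
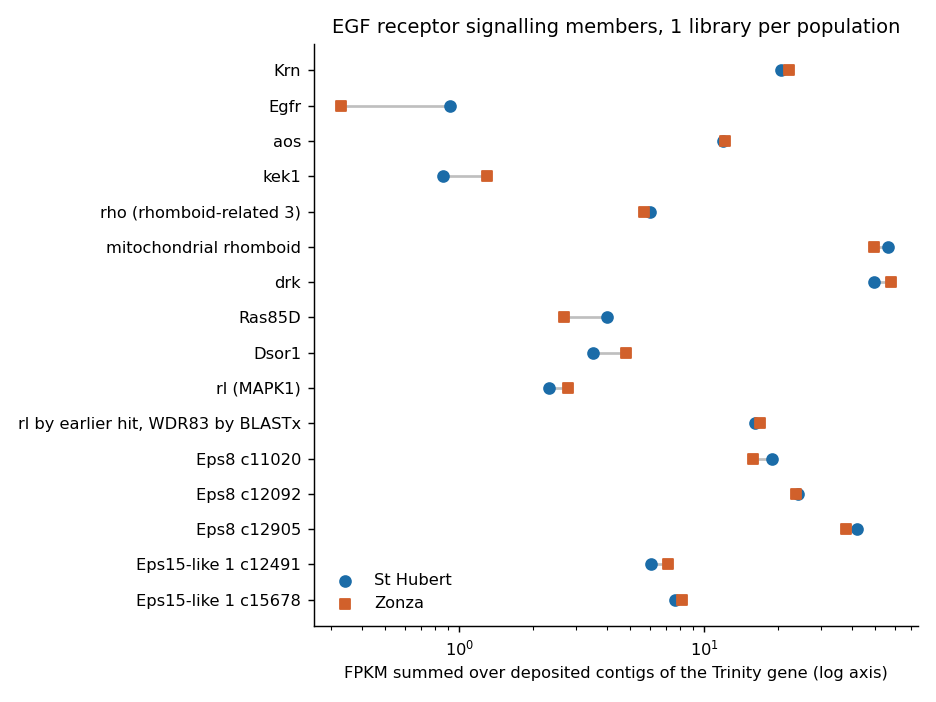
FPKM summed over the deposited contigs of each of the 16 member Trinity genes (log axis), with a circle for the St Hubert library and a square for the Zonza library, 1 library each. Levels run from Egfr (0.92 and 0.33) to drk (49.55 and 57.90), and for most genes the circle and the square lie close together.

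By mean FPKM the members ran from drk, the mitochondrial rhomboid and Eps8 c12905, through Krn and aos, to Dsor1, Ras85D, rl, kek1 and Egfr. Of the 15 neighbouring pairs in this order, 5 swapped places between the libraries. They were drk and the mitochondrial rhomboid, Eps8 c11020 and the WDR83-like gene, Dsor1 and Ras85D, Ras85D and rl, and kek1 and Egfr. The place of drk counts further contigs of its Trinity gene whose earlier hits are uncharacterised. Its named contig alone had a mean of 24.8 FPKM, below the mitochondrial rhomboid (52.7) and Eps8 c12905 (40.04). The order of Krn above aos, and of aos above rho, was the same in both libraries. In each library the ligand was therefore listed at a level above its antagonist Argos and above Ras85D, Dsor1 and rl. The 1 Egfr contig, of 884 bases, was listed below 1 FPKM in each.

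A difference between the libraries was counted where the mean was at least 1 FPKM and the log2(FPKM + 1) difference at least 1, which is 2-fold on that scale. Per contig, 19 of the 21 members passed the minimum and 2 differed, both lower in Zonza. Over all 16054 contigs past the minimum, 39.7% differed in either direction and 18% were lower in Zonza. The 2 contigs were Krn i1 and the Eps8 contig c12905 i2. The Eps8 contig was at 6.23 FPKM in St Hubert and 1.86 in Zonza, from 97 and 27 fragments, with a ratio of 0.295 (0.185 to 0.456) and a log2 difference of -1.34. The other contig of that gene was at 36.04 and 35.95 FPKM. Just outside the threshold was the Eps8 contig c11020 i1, at 3.36 FPKM in St Hubert and 1.59 in Zonza (log2 difference -0.75). The contigs below the minimum were Egfr and Ras85D i2.

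Per Trinity gene, 15 of the 16 members passed the minimum. With only the contigs that the rule takes, Krn was the 1 gene past 2-fold. With all deposited contigs of each Trinity gene, 0 of the 15 passed. Over all 9459 Trinity genes past the minimum, 10.3% differed in either direction and 5.11% were lower in Zonza. The 15 members lay between -0.45 and 0.35 on the log2 scale, with a median of 0.06, beside a median of -0.0066 over all Trinity genes. FPKM was higher in Zonza for 9 of the 15 and higher in St Hubert for 6.

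**Figure D3:**
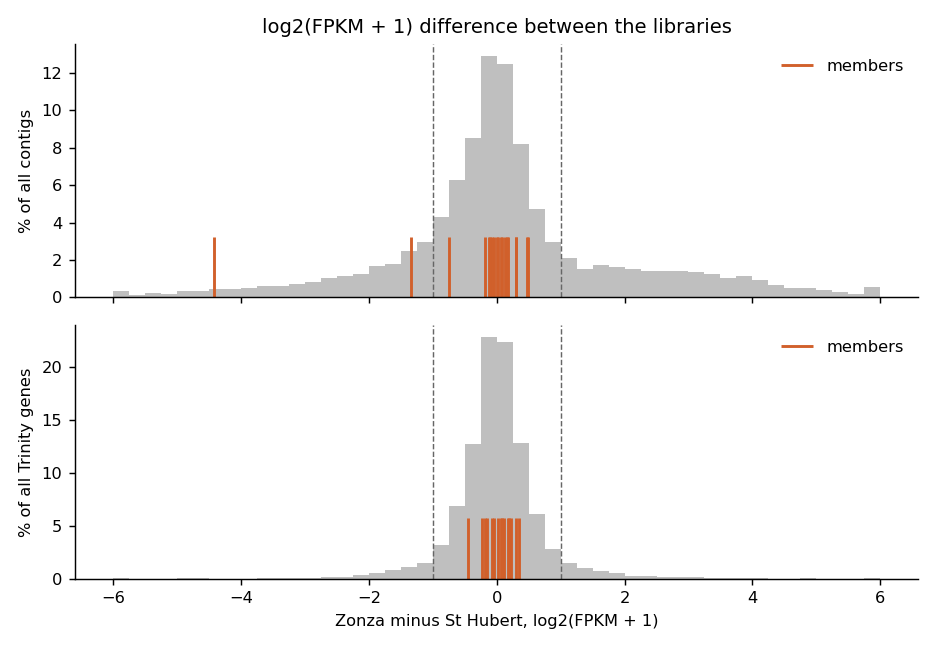
Distribution of the log2(FPKM + 1) difference, Zonza minus St Hubert, over all contigs (top) and all Trinity genes (bottom) with a mean of at least 1 FPKM, in percent, with members as vertical lines, the 2-fold threshold dashed and values beyond the axis placed in the end bins. Per contig 2 members lie beyond the threshold, of which the far one is Krn i1, listed at 0 in Zonza, while per Trinity gene the 15 members lie between -0.45 and 0.35.

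For 11 of the 16 Trinity genes the counting interval of the ratio included 1. For the other 5 it did not, with the mitochondrial rhomboid, Ras85D and Eps8 c12905 lower in Zonza and drk and Dsor1 higher. For Ras85D, Dsor1 and Eps8 c12905, the contig interval excluded 1 for only 1 of 2 contigs. How often the interval excludes 1 over all Trinity genes was not computed, so the 5 cannot be called many or few. These intervals compare the 2 libraries and not the populations, and they are too narrow where RSEM shared fragments among similar contigs.

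**Figure D4:**
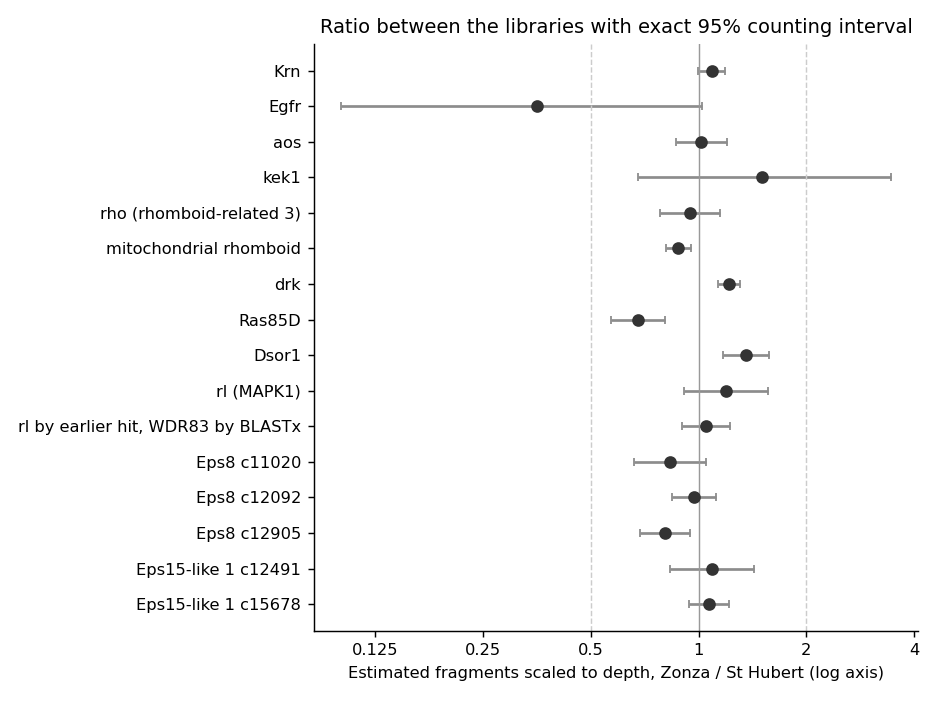
Ratio of depth-scaled estimated fragments, Zonza over St Hubert (log axis), for the 16 member Trinity genes with all their deposited contigs, where points are the ratios, bars the exact 95% counting intervals, and dashed lines mark 0.5 and 2. The widest intervals are those of Egfr (5 fragments in Zonza) and kek1 (12 fragments in St Hubert), and the interval of Krn runs from 0.998 to 1.19.

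Beyond the members, 28 other genes of the pathway were looked for by symbol and protein name. Of these 21 were matched, to 30 Trinity genes, and 27 of the 30 passed the minimum. A 2-fold difference was counted for 1 of the 27, higher in Zonza, and for 0 lower in Zonza, beside the 10.3% of all Trinity genes. FPKM was higher in Zonza for 13 and higher in St Hubert for 14, with a median log2 difference of -0.0092.

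Among the ligands and their processing, grk, S, ru and stet were not matched. Vein (vn), a secreted neuregulin-like ligand in *Drosophila*, had a contig of 237 bases at 0.87 FPKM in St Hubert and 0.46 in Zonza, from 2 fragments and 1 fragment, too few to compare. The 3 listed inhibitors matched 4 Trinity genes with a median log2 difference of 0.19. They were led by sprouty (sty), an inhibitor of receptor tyrosine kinase signalling induced by the pathway itself. A sprouty-like contig of 314 bases, named by its NCBI hit only, was at 31.39 FPKM in St Hubert and 36.45 in Zonza, and a longer one (c7406) at 8.76 and 11.29. Cbl, which marks the receptor for degradation, was at 6.4 and 7.32 FPKM when its 4 contigs were summed. Its summed fragments were 341 in St Hubert and 304 in Zonza, so FPKM and fragments differed in direction.

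Of the 14 transducers, 11 were matched and 10 passed the minimum, with a median log2 difference of -0.0956. Rap1, a small GTPase related to Ras, was highest at 55.85 FPKM in St Hubert and 51.39 in Zonza. Src42A, a cytoplasmic tyrosine kinase, followed at 13.23 and 13.14, and ksr, the scaffold of Raf and MEK, at 11.40 and 10.28. Genes named after their values were seen were phl, vap and csw. The Raf kinase phl was at 6.78 FPKM in St Hubert and 6.45 in Zonza, a level above that of Dsor1 and rl. The gene vap, a Ras GTPase-activating protein that switches Ras off, was at 6.82 and 3.26 FPKM from 787 and 355 fragments, a ratio of 0.478 (0.420 to 0.542). Its log2(FPKM + 1) difference of -0.88 was short of the threshold, although its fragment ratio was below 0.5. The phosphatase gene csw (SHP2), which acts between receptor and Ras, was at 4.67 and 7.47, a ratio of 1.6 (1.40 to 1.82).

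The pattern counted above, with contigs listed at 0 in both directions, recurred in 4 of the 11 of these Trinity genes that had at least 2 contigs. The share of all such Trinity genes was 14.2%. In msk, an importin known in *Drosophila* to bring active Rolled into the nucleus, contig i1 was listed at 0 in St Hubert and was at 8.03 FPKM in Zonza, and i2 was at 8.50 in St Hubert and listed at 0 in Zonza. In Src42A, contig i5 was at 11.99 FPKM in St Hubert and listed at 0 in Zonza, and i1 was listed at 0 in St Hubert and was at 10.42 in Zonza. Cbl and a Trinity gene with broad hits (c17089) were the others. In c17089 the contigs listed at 0 in Zonza had another gene, modifier of mdg4, as their earlier hit. Its pattern may therefore not be that of a pathway gene. Cbl was not a full exchange, since contig i3 was at 1.57 FPKM in St Hubert and 4.61 in Zonza, and i4 at 2.73 and 1.59. These genes were named after their values were seen.

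The nuclear factors and target genes gave 14 Trinity genes, of which 13 passed the minimum, with a median log2 difference of 0.0851. The highest was aop (Yan), an ETS repressor that Rolled inactivates, at 29.28 FPKM in St Hubert and 31.12 in Zonza. The 1 Trinity gene past 2-fold (c20252) was matched to broad (br) by its NCBI hit only, with no BLASTx description. Broad is a zinc finger factor that in the fly ovary is set in follicle cells downstream of the receptor. The c20252 gene was at 8.53 FPKM in St Hubert and 36.48 in Zonza. Its longest contig has 288 bases, and the values rest on 28 and 105 fragments, a ratio of 3.97 (2.60 to 6.26). Of the 7 Trinity genes matched to broad, 5 had a higher FPKM in Zonza, c17089 (below) among them, and 2 in St Hubert. Those higher in St Hubert were c18816_g1, at 4.80 and 3.10 FPKM, and c18816_g2, at 5.21 and 4.51 FPKM. Trinity genes whose ids share c18816 may hold pieces of 1 gene, so the 7 may not be independent. Another Trinity gene with broad hits (c17089) summed to 11.97 and 20.19 FPKM, and 5 of its 7 contigs have modifier of mdg4 as their earlier hit, another gene with the same type of domain. These contigs held most of the FPKM, with i4 at 6.95 in St Hubert and i7 at 15.74 in Zonza. The contigs with a broad hit were i1, at 0 and 2.64 FPKM, and i6, at 0.40 and 0.14. The sum of c17089 is therefore not a level of broad.

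**Figure D5:**
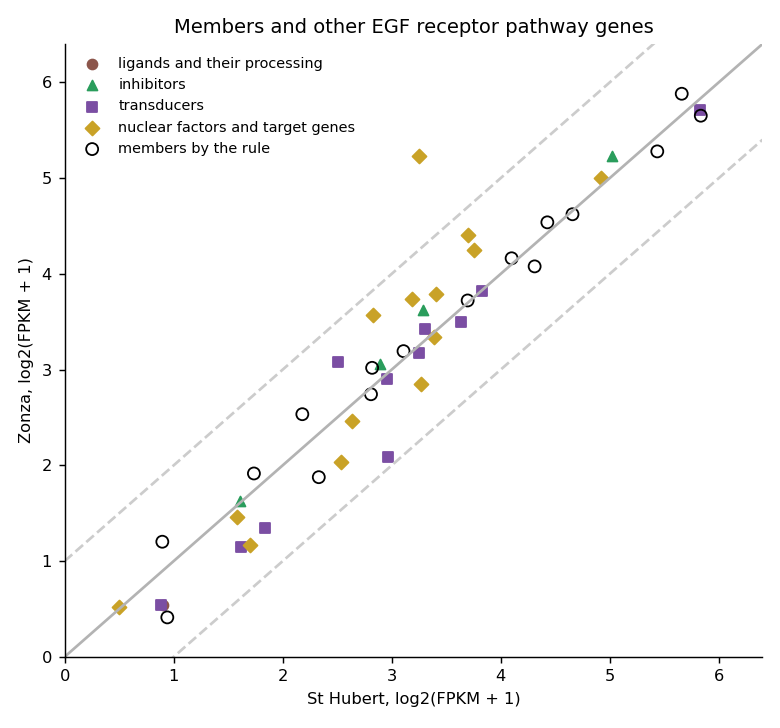
log2(FPKM + 1) in the St Hubert library (horizontal axis) and the Zonza library (vertical axis) for the 30 other pathway Trinity genes, by role, and the 16 members as open circles, with equality as the solid line and 2-fold differences dashed. The 1 point above the upper dashed line is the fragment matched to broad by its NCBI hit only, at 8.53 and 36.48 FPKM.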

How the data were processed

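Ovary mRNA of *P. aegeria* was sequenced as 1 library per population. The authors trimmed reads, assembled both libraries together with Trinity, kept contigs with a BLAST hit and deposited an FPKM per contig and library, made with RSEM. Bowtie is named per the labels. The FPKM refer to the transcript assembly and not to a genome, and the deposited contigs carry no genome coordinates. The columns headed Belgium and Corsica were taken as St Hubert and Zonza, and 0 columns of per-sample values were left unmapped. The small RNA counts were not used here.

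FPKM were compared as log2(FPKM + 1), without a test, at a mean of at least 1 and a 2-fold difference, per contig and summed per Trinity gene. Fragments were estimated from the FPKM of low contigs, using effective lengths 130 bases below the contig length, and ratios have exact conditional 95% intervals. Procedures were tested on simulated data. Software was scipy 1.17.1, numpy 2.4.6, pandas 2.3.3 and, for plots, matplotlib 3.10.9, under Python 3.11.15.

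Members and lists were chosen with earlier results of these data known. Named genes are members taken by symbol, as the receptor or as a rhomboid, the highest and lowest of the other text matches, members at the threshold, and of the other pathway genes those past the threshold and the 3 with the highest mean in each role. The symbol drk was matched in capitals too. Name patterns for Rap1, vap and kek1 were tightened after the matched descriptions were read. Alternatives were other pseudocounts, minimums, fold thresholds, scalings, units and member sets.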

Additional observations from a re-analysis of the deposited data

How the results depend on the processing

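Per contig, the count of 2 members past the threshold became 3 with a pseudocount of 0.1, with no minimum and at a 1.5-fold threshold, and 1 with a pseudocount of 5, a mean of at least 5 FPKM, a 4-fold threshold, or only members whose BLASTx description names the same protein. Per Trinity gene, the count of 1 became 0 with all deposited contigs and with only members whose BLASTx description names the same protein, which leaves out Krn. For the other pathway genes, the count of 1 became 2 with a pseudocount of 0.1, which added vap, lower in Zonza. It became 4 at a 1.5-fold threshold and 0 at a 4-fold threshold. A minimum of 10 estimated fragments in place of a mean FPKM, chosen after seeing the data, gave 3 of 21 contigs, adding Ras85D i2. The log2 differences of the 16 genes moved by less than counting error under both other pseudocounts and both scalings. With the contig of highest mean alone, 13 of 16 did so, and those of Krn (4.54), Ras85D (0.16) and Dsor1 (0.13) moved, so that Ras85D was no longer lower in Zonza. The value of Krn is that of contig i2, and contig i1, the one that the rule takes, had -4.43, so the sign follows the contig chosen. Both values depend on the pseudocount, since each contig is listed at 0 in 1 library.

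No paired analysis was possible because there was 1 library per population, and for the same reason no replicate was left out. Depth limits Egfr and kek1 among the members and vn, Nf1, mirr, cnk and br c18816_g1 among the other genes, which rest on fewer than 20 fragments in each library. The annotation follows from BLAST hits, and the split of a gene over contigs was not tested.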
